A study of Homo sapiens with 20 samples.

Results

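CREM, SIK1, PDE4B, PDE4D, GEM, RASD1, RGS2 and AKAP12 are 8 genes that many cells transcribe in answer to cAMP, or whose proteins act on the cAMP signal itself. They were found by gene symbol in a table of 58825 genes, where each symbol stood in 1 row, and all 8 are among the 20094 genes tested, which had at least 0.1 FPKM (fragments scaled to transcript length and to the reads mapped in the library) in at least 4 of 20 libraries. Each of the 8 was at or above 0.1 FPKM in all 20 libraries. RASD1 was the lowest of them, with a range of 0.104 to 2.7 FPKM over the libraries.

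cAMP is made by adenylyl cyclases, which receptors switch on through the G protein Gs or off through Gi, and it activates protein kinase A (PKA), which phosphorylates the transcription factor CREB. Phosphorylated CREB binds the cAMP response element, the palindrome TGACGTCA or its shorter form TGACG. With its CRTC coactivators it raises a set of genes within an hour or so, many of which damp the signal that raised them. In airway epithelium this pathway is best known for secretion, ciliary beating and the restraint of inflammation, and adenosine formed from extracellular ATP is among the signals that reach it.

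The cells were A549, an established human lung adenocarcinoma line grown in DMEM with 10% fetal bovine serum. Cells received TGF-β at 10 ng/mL for 6 hours, TGF-β for 2 hours, extracellular ATP (eATP) at 0.5 mM for 6 hours, or eATP for 2 hours, and the controls were left untreated, with 4 libraries for each of the 5 conditions. Stranded poly(A) RNA was sequenced, and the question was how gene expression under eATP compares with that under TGF-β, a cytokine that induces epithelial to mesenchymal transition. The controls carry no collection time and serve all 4 comparisons with a treatment, so these comparisons share them.

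Each library held between 56187614 and 75050437 counts. Replicate 1 of TGF-β at 2 hours stood apart, with a standard deviation of 0.653 for its log2 deviations from the group means over genes, against 0.378 to 0.478 in the other 19 libraries. Among the 4 libraries of its group it was the lowest for 5 of the 8 genes and the highest for 2. The labels number 4 replicates per condition and the study describes 3, and no source used here says whether they were separate cultures, so p-values cover only the spread from library to library, and that spread may be technical. The epithelial markers KRT8 (329 to 607 FPKM), KRT18, KRT19, EPCAM and CDH1 were present in every library. PTPRC, CD3E, VWF, PECAM1, SFTPC, SFTPB and NKX2-1, which mark leukocytes, endothelium and differentiated alveolar cells, were at or near 0, none above 0.0671 FPKM, and of the other markers searched CDH5 (endothelium), COL3A1 and PDGFRA (fibroblasts) stayed at or below 0.503 FPKM, CD68 (leukocytes) reached 6.22 FPKM and COL1A1 (fibroblasts) 17.8 FPKM. In bulk RNA, fewer cells that express a gene and less RNA per cell cannot be told apart.

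Promoter sequence was read for 7 of the 8 genes from RefSeq windows on GRCh38.p14, each of 250 bases before and 50 after a start site, and GEM is not shown. Both strands were searched for TGACGTCA and for TGACG, whose reverse complement is CGTCA. Every TGACGTCA also holds a TGACG on each strand. TGACGTCA stood in 1.85% of all 35116 windows, and TGACG on either strand, the full element included, in 24.6%. Of the 27 windows of the 7 genes, 7 held either motif, a share near that of all windows. TGACGTCA was found at 1 site, at internal starts of CREM, where 2 overlapping windows hold it. By gene, 5 of the 7 had either motif in at least 1 window, against 28.4% of all genes with windows, and PDE4D, PDE4B and CREM have more windows in which to find one than RASD1, RGS2 or SIK1. No match was found in the 6 windows of PDE4B or the 3 of AKAP12. Stretches are given for CREM, with its full element, and for RASD1, RGS2 and SIK1, which have 1 window each with a match. The match in 1 of the 8 windows of PDE4D and the 2 TGACG matches in another window of CREM are not printed. AKAP12 and PDE4B, without a match, also rose after 2 hours of eATP, and SIK1, with 3 matches, fell. The stretches run 5′ to 3′ on the strand of the gene, and capitals mark the matches.
CREM, chr10:35195792-35195874, plus strand, match beginning 50 bases before the start: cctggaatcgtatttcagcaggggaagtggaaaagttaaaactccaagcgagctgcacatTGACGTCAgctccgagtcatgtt
RASD1, chr17:17496454-17496588, minus strand, matches beginning 133 and 78 bases before the start: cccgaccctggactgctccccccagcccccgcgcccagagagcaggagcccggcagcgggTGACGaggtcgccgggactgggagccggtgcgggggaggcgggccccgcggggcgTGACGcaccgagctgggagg
RGS2, chr1:192808798-192808877, plus strand, match beginning 181 bases before the start: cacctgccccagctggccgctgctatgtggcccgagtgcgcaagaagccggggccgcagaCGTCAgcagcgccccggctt
SIK1, chr21:43427238-43427381, minus strand, matches beginning 217, 137 and 126 bases before the start: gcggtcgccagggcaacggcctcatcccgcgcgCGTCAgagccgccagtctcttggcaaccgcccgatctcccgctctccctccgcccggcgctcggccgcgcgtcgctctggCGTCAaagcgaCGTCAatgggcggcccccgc
A match describes the letters of the window and does not show that a factor is bound there. A gene without a match may hold one outside the windows read. Whether matches go with the changes in expression was not tested.

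After 2 hours of eATP, 6 of the 8 genes rose against the controls and 1 fell, while 8.58% of all genes tested passed the same threshold (4.79% higher, 3.79% lower). RASD1, AKAP12, RGS2, GEM, CREM and PDE4B rose, SIK1 fell, and PDE4D did not pass. The median log2(FC) of the 8 genes was 0.95, against -0.011 over all genes tested. In all 7 genes that passed, the 4 eATP libraries lay wholly above (6 genes) or wholly below (1) the 4 controls, which held for 9.3% and 10.4% of all genes. The library values are shown in the plot of FPKM by condition.

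**Figure D1:**
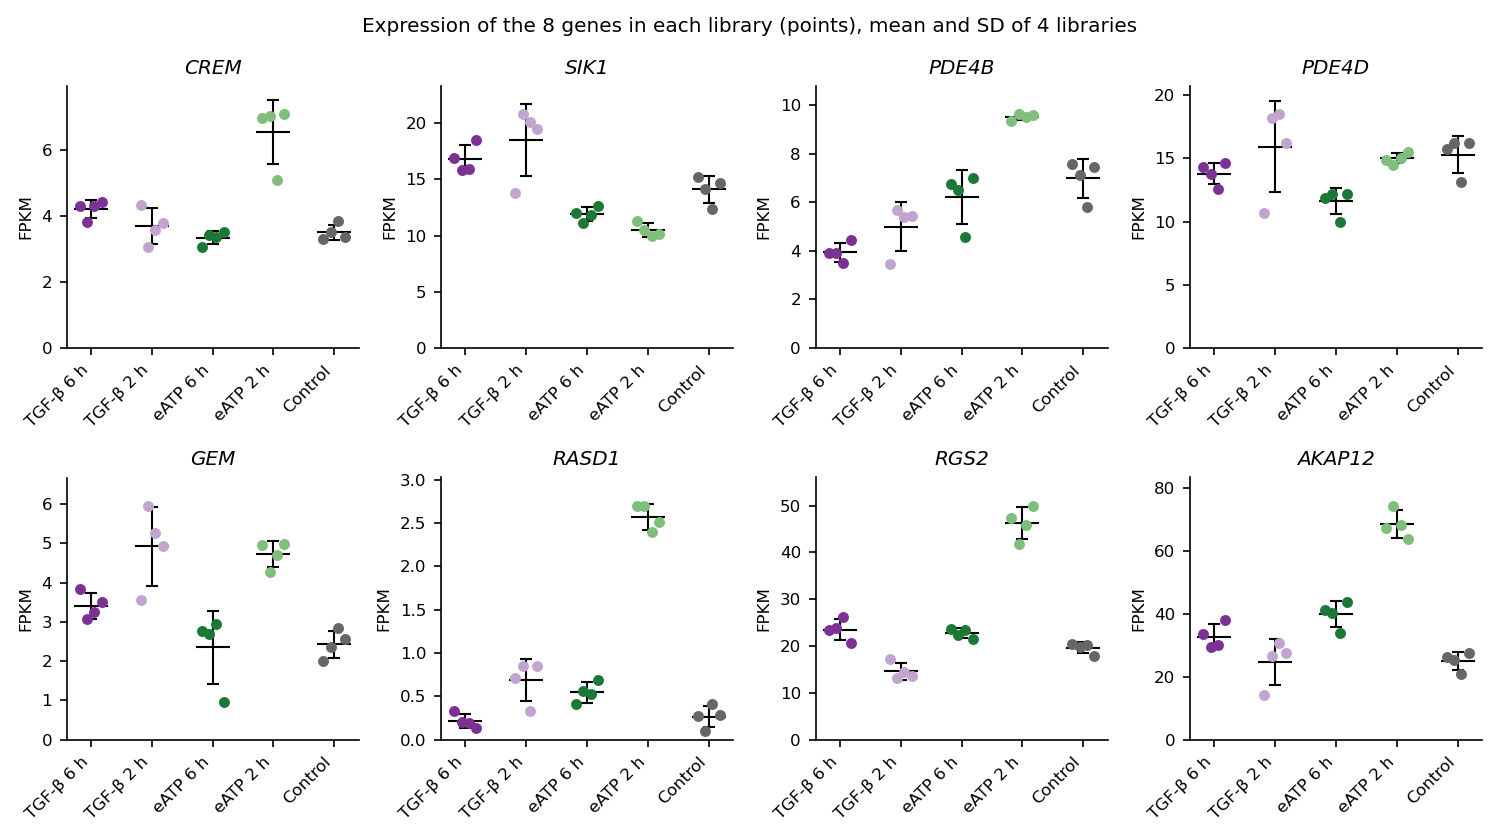
FPKM of each of the 8 genes in every library (points) under TGF-β for 6 hours, TGF-β for 2 hours, eATP for 6 hours, eATP for 2 hours and in untreated controls, with the mean (wide line) and SD (bars) of the 4 libraries. For CREM, PDE4B, RASD1, RGS2 and AKAP12 the 4 libraries of eATP at 2 hours lie above those of each of the other 4 conditions, while SIK1 is lowest there.

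The other 3 treatments moved fewer of the 8. TGF-β at 6 hours raised 2 (SIK1 and RGS2) and lowered 1 (PDE4B), where 16.2% of all genes passed (8.4% higher, 7.76% lower). TGF-β at 2 hours raised 3 (SIK1, GEM and RASD1) and lowered 2 (PDE4B and RGS2), where 12.9% of all genes passed (7.25% higher, 5.67% lower). eATP at 6 hours raised 1 (AKAP12), where 2.99% of all genes passed (1.71% higher, 1.28% lower). The 4 treated libraries lay wholly above the controls for 4 of the 8 genes and wholly below for 1 with TGF-β at 6 hours (9.07% and 14.4% of all genes), for 1 and 2 with TGF-β at 2 hours (8.04% and 8.33%), and for 2 and 1 with eATP at 6 hours (5.01% and 6.29%). The medians of log2(FC) over the 8 genes were 0.34 for TGF-β at 6 hours, 0.088 for TGF-β at 2 hours and -0.04 for eATP at 6 hours, against -0.012, 0.017 and -0.013 over all genes. Replicate 1 of TGF-β at 2 hours was then left out. With TGF-β 5 of the 8 genes passed at 6 hours and 4 at 2 hours, and with eATP 2 and 7. In that fit, of all 20094 genes, 2023 were higher and 2192 lower for TGF-β at 6 hours, and 1581 and 1121 at 2 hours. With all libraries these were 1688 and 1559, and 1456 and 1139. For eATP they were 591 and 431 at 6 hours and 1329 and 1179 at 2 hours, against 343 and 257, and 963 and 762.

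**Figure D2:**
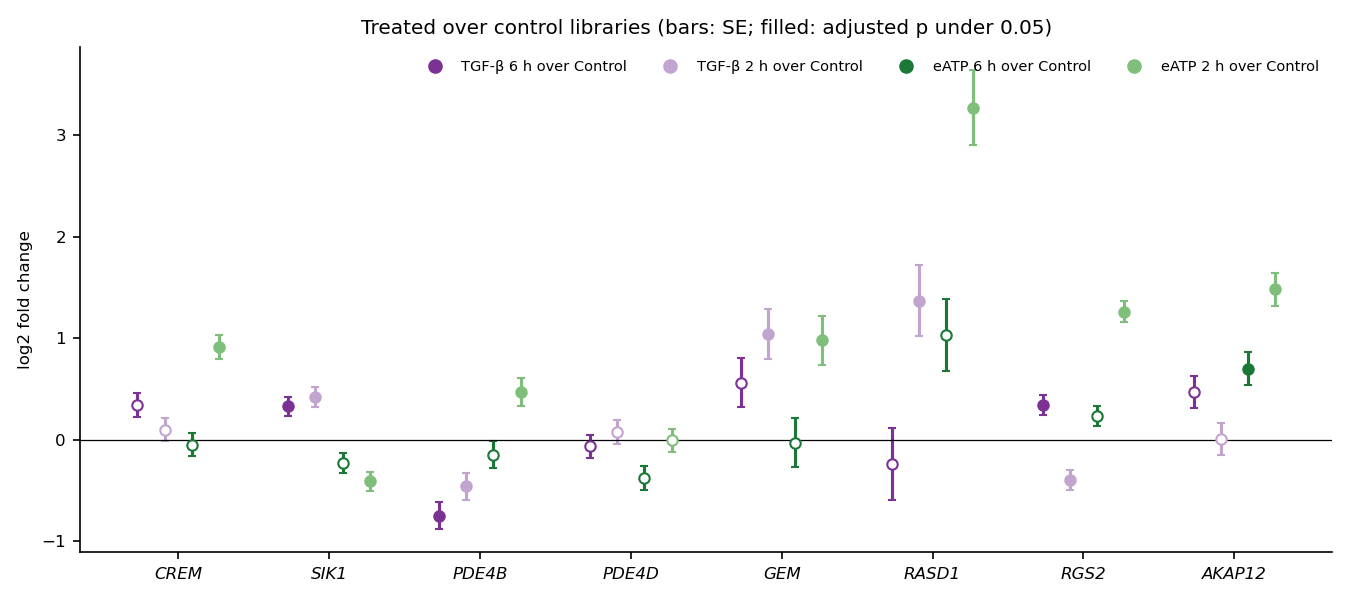
Log2(FC) of each gene under the 4 treatments over the same 4 control libraries, with SE as bars and filled points where edgeR's adjusted p was under 0.05. RASD1 after 2 hours of eATP has the largest value, 3.27, and PDE4B has a negative value under TGF-β at both times and a positive one after 2 hours of eATP.

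CREM (chromosome 10, 35126791 to 35212958 in GENCODE release 29 on GRCh38) encodes a CREB family member whose internal promoter gives the repressor ICER, and the table holds 1 value for all its transcripts. It had 4.3, 3.82, 4.31 and 4.41 FPKM under TGF-β for 6 hours, 4.34, 3.05, 3.56 and 3.79 FPKM under TGF-β for 2 hours, 3.07, 3.42, 3.36 and 3.51 FPKM under eATP for 6 hours, 6.96, 7.02, 5.08 and 7.08 FPKM under eATP for 2 hours, and 3.31, 3.52, 3.83 and 3.36 FPKM in controls. Its 4 libraries of eATP at 2 hours were the 4 highest of the 20, with replicate 3 below the other 3 but above every library of the other conditions. The rise after 2 hours of eATP was 1.88-fold (log2(FC) 0.91, SE 0.118), with an adjusted p of 3.21e-05 in the quasi-likelihood test of edgeR that gives every adjusted p here unless another is named. For TGF-β at 6 hours log2(FC) was 0.34 (95% interval 0.089 to 0.59), with an adjusted p of 0.058 that fell to between 0.0292 and 0.0441 without control replicate 3, eATP 2 hours replicate 3, TGF-β 2 hours replicate 1 or TGF-β 2 hours replicate 2, and passed with DESeq2 (0.0372) or in a fit of these groups alone (0.0239). The libraries of the other 2 treatments overlapped the controls, with 95% intervals of -0.15 to 0.35 for TGF-β at 2 hours and -0.30 to 0.20 for eATP at 6 hours.

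SIK1 (chromosome 21, 43414483 to 43427189) encodes a salt-inducible kinase that phosphorylates the CRTC coactivators and so keeps them out of the nucleus. It had 16.9, 15.8, 15.9 and 18.5 FPKM under TGF-β for 6 hours, 13.8, 20.8, 20.1 and 19.5 FPKM under TGF-β for 2 hours, 12, 11.1, 11.8 and 12.6 FPKM under eATP for 6 hours, 11.3, 10.5, 10 and 10.1 FPKM under eATP for 2 hours, and 15.2, 14.1, 12.4 and 14.7 FPKM in controls. It lay on opposite sides of the controls under the 2 agents at 2 hours, and replicate 1 of TGF-β at 2 hours was the one library there within the range of the controls. With 2 hours of eATP it fell (log2(FC) -0.41, SE 0.0946 and adjusted p = 0.00935). TGF-β raised it at 2 hours (log2(FC) 0.42, SE 0.0945 and adjusted p = 0.00558), a call that a fit of these 2 groups alone did not keep (adjusted p = 0.0888). TGF-β also raised it at 6 hours (log2(FC) 0.33, SE 0.0945 and adjusted p = 0.0225), where adjusted p was 0.0502 to 0.0752 without control replicate 2, control replicate 3, TGF-β 6 hours replicate 1 or TGF-β 6 hours replicate 4. There it did not pass with limma, unscaled library totals or no filter on low genes either (0.0564 to 0.128).

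SIK1B, listed elsewhere on chromosome 21 (6111134 to 6123739), is a near-identical copy of SIK1, and how reads were split between the copies was not tested. It was listed at a higher level than SIK1, with 37 ± 1.08, 40 ± 3.61, 24.3 ± 0.666, 21.2 ± 0.34 and 28.3 ± 0.772 FPKM (SD, n = 4 each) under TGF-β for 6 hours, TGF-β for 2 hours, eATP for 6 hours, eATP for 2 hours and in controls. Its log2(FC) had the same sign as that of SIK1 in all 4 comparisons with the controls. With the counts of both copies summed, an alternative chosen after seeing the data, log2(FC) was 0.42 for TGF-β at 6 hours (adjusted p = 6.49e-05), 0.49 for TGF-β at 2 hours (2e-05), -0.21 for eATP at 6 hours (0.0819) and -0.40 for eATP at 2 hours (0.000253).

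**Figure D3:**
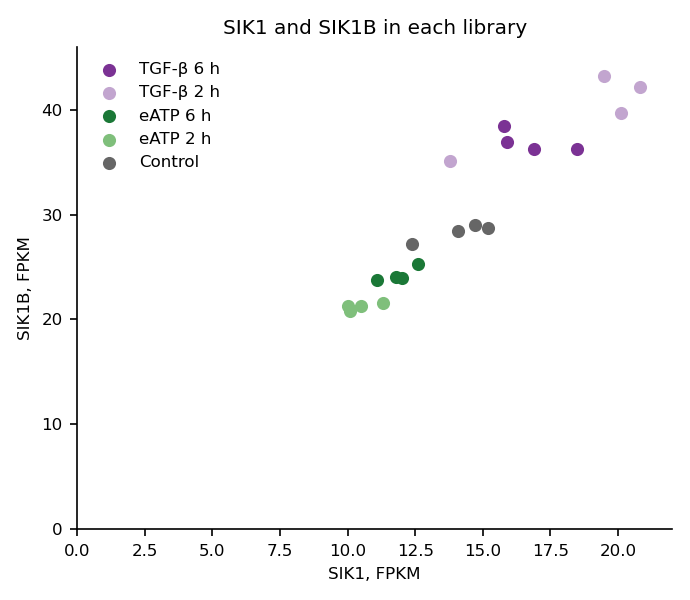
SIK1 (x axis) and SIK1B (y axis) in FPKM, 1 point for each of the 20 libraries, coloured by condition. The SIK1B values of the TGF-β libraries, 35.1 to 43.2 FPKM, lie above the controls and those of the eATP libraries, 20.8 to 25.3 FPKM, below them.

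PDE4B (chromosome 1, 65792514 to 66374579) encodes a phosphodiesterase that breaks down cAMP. It had 3.91, 3.91, 3.52 and 4.44 FPKM under TGF-β for 6 hours, 3.48, 5.69, 5.38 and 5.43 FPKM under TGF-β for 2 hours, 6.76, 6.52, 4.56 and 6.99 FPKM under eATP for 6 hours, 9.37, 9.64, 9.52 and 9.6 FPKM under eATP for 2 hours, and 7.59, 7.11, 5.82 and 7.46 FPKM in controls. All 8 TGF-β libraries were below all 4 controls, and all 4 libraries of eATP at 2 hours were above them. The fall under TGF-β for 6 hours (log2(FC) -0.75, SE 0.134 and adjusted p = 0.000502) passed in each of the 20 fits that left out 1 library. That under TGF-β for 2 hours (log2(FC) -0.46, SE 0.134 and adjusted p = 0.0272) did not pass without control replicate 1, 2 or 4 or TGF-β 2 hours replicate 1 (adjusted p 0.0609 to 0.0891), nor in a fit of these groups alone (0.124). The rise at 2 hours of eATP (log2(FC) 0.47, SE 0.134 and adjusted p = 0.0339) did not pass without any 1 of the 4 eATP libraries or without control replicate 2, 3 or 4 (adjusted p 0.0524 to 0.113), and limma, unscaled library totals or no filter on low genes also left it above the threshold (0.0534 to 0.071). The interval for eATP at 6 hours was -0.44 to 0.13.

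PDE4D (chromosome 5, 58969038 to 60522120) encodes another phosphodiesterase of the same family. It had 14.3, 13.8, 12.6 and 14.6 FPKM under TGF-β for 6 hours, 10.7, 18.2, 18.5 and 16.2 FPKM under TGF-β for 2 hours, 11.9, 12.2, 10 and 12.2 FPKM under eATP for 6 hours, 14.9, 14.5, 15 and 15.5 FPKM under eATP for 2 hours, and 15.7, 16.2, 13.1 and 16.2 FPKM in controls. The 4 libraries of eATP at 6 hours were below all controls, and those of the other treatments overlapped them. No comparison with the controls passed. For eATP at 6 hours log2(FC) was -0.38 (95% interval -0.63 to -0.13, adjusted p = 0.0955), and it passed without TGF-β 2 hours replicate 1 (log2(FC) -0.37, adjusted p = 0.00366) and with upper-quartile scaling (0.0296). For eATP at 2 hours it was -0.0074 (95% interval -0.25 to 0.24), so PDE4B and PDE4D did not share the call at that time, and the difference between the 2 genes was not tested.

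GEM (chromosome 8, 94249253 to 94262350) encodes a small GTPase of the RGK family that inhibits voltage-gated calcium channels. It had 3.83, 3.06, 3.24 and 3.51 FPKM under TGF-β for 6 hours, 3.56, 5.96, 5.25 and 4.92 FPKM under TGF-β for 2 hours, 2.77, 2.7, 2.95 and 0.965 FPKM under eATP for 6 hours, 4.95, 4.27, 4.7 and 4.99 FPKM under eATP for 2 hours, and 2.01, 2.35, 2.83 and 2.55 FPKM in controls. It was about as high after 2 hours of either agent, all 8 of those libraries lying above all controls, and replicate 4 of eATP at 6 hours was far below the rest. The rise was 2.05-fold after 2 hours of TGF-β (log2(FC) 1.04, SE 0.242 and adjusted p = 0.00694) and 1.97-fold after 2 hours of eATP (log2(FC) 0.98, SE 0.242 and adjusted p = 0.0141, or 0.0506 without control replicate 1). After 6 hours of TGF-β log2(FC) was 0.56 (95% interval 0.049 to 1.08), with an adjusted p of 0.135 that fell to 0.00737 without eATP 6 hours replicate 4 and to 0.0223 in a fit of these groups alone. With 6 hours of eATP it was -0.031 (95% interval -0.54 to 0.48), and 0.23 without that library.

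RASD1 (chromosome 17, 17494437 to 17496395) encodes a Ras-like GTPase, first known as a dexamethasone-induced gene, that can activate Gi. It had 0.328, 0.208, 0.186 and 0.13 FPKM under TGF-β for 6 hours, 0.714, 0.848, 0.333 and 0.85 FPKM under TGF-β for 2 hours, 0.405, 0.559, 0.521 and 0.688 FPKM under eATP for 6 hours, 2.7, 2.69, 2.39 and 2.51 FPKM under eATP for 2 hours, and 0.268, 0.104, 0.405 and 0.285 FPKM in controls. The libraries of eATP at 2 hours stood well clear of all others. They held 364 to 416 reads, against 15 to 64 reads in the controls, so the control level rests on few reads. The rise after 2 hours of eATP was 9.63-fold (log2(FC) 3.27, SE 0.37 and adjusted p = 6.73e-06). After 2 hours of TGF-β it was 2.59-fold (log2(FC) 1.37, SE 0.352 and adjusted p = 0.0132), with libraries that overlapped the controls and a call that a fit of these groups alone did not keep (adjusted p = 0.124). At 6 hours log2(FC) was -0.24 under TGF-β (adjusted p = 0.754) and 1.03 under eATP (95% interval 0.28 to 1.78, adjusted p = 0.149, or 0.0461 by DESeq2).

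RGS2 (chromosome 1, 192809039 to 192812283) encodes a regulator of G protein signalling that speeds the shut-off of Gq and also binds adenylyl cyclases. It had 23.5, 23.9, 26.2 and 20.6 FPKM under TGF-β for 6 hours, 17.3, 13.2, 14.4 and 13.6 FPKM under TGF-β for 2 hours, 23.7, 22.3, 23.5 and 21.5 FPKM under eATP for 6 hours, 47.3, 41.8, 45.9 and 50 FPKM under eATP for 2 hours, and 20.5, 19.8, 20.3 and 17.9 FPKM in controls. After 2 hours every eATP library was above and every TGF-β library below the controls, and after 6 hours the libraries of both agents were a little above them. The rise after 2 hours of eATP was 2.39-fold (log2(FC) 1.26, SE 0.101 and adjusted p = 9.62e-08). With 2 hours of TGF-β it fell (log2(FC) -0.40, SE 0.0995 and adjusted p = 0.0114), and the call was not kept with upper-quartile scaling (0.0514) or in a fit of these groups alone (0.135). With 6 hours of TGF-β it rose (log2(FC) 0.34, SE 0.0994 and adjusted p = 0.0242), where adjusted p was 0.0501 to 0.119 without control replicate 2 or 4 or TGF-β 6 hours replicate 1, 2 or 3, and 0.0513 to 0.0686 with upper-quartile scaling, library totals, no filter or limma. With 6 hours of eATP log2(FC) was 0.23 (95% interval 0.023 to 0.45, adjusted p = 0.29).

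AKAP12 (chromosome 6, 151239999 to 151358557), also called gravin, encodes a scaffold that holds PKA and other kinases near the cell membrane. It had 33.4, 29.5, 29.9 and 38 FPKM under TGF-β for 6 hours, 14.2, 26.6, 30.6 and 27.6 FPKM under TGF-β for 2 hours, 41.1, 40.2, 33.9 and 43.8 FPKM under eATP for 6 hours, 67.2, 74.3, 68.2 and 63.7 FPKM under eATP for 2 hours, and 26.1, 25.4, 20.7 and 27.5 FPKM in controls. It was the most abundant of the 8, and the libraries of eATP at both times and of TGF-β at 6 hours lay above all controls. The rise was 2.79-fold after 2 hours of eATP (log2(FC) 1.48, SE 0.161 and adjusted p = 4.08e-06) and 1.62-fold after 6 hours (log2(FC) 0.70, SE 0.159 and adjusted p = 0.0192). The call at 6 hours was not kept without control replicate 2 or 3 or eATP 6 hours replicate 1 or 4 (adjusted p 0.0517 to 0.072). With 6 hours of TGF-β log2(FC) was 0.47 (95% interval 0.13 to 0.81, adjusted p = 0.0505), and it passed without TGF-β 2 hours replicate 1 (0.00158) or replicate 3 (0.0408), and with upper-quartile scaling, another filter, DESeq2, robust estimation or these groups alone (0.0138 to 0.0486). For TGF-β at 2 hours the interval was -0.33 to 0.35.

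In the order of mean FPKM, eATP at 2 hours stood first for CREM, PDE4B, RASD1, RGS2 and AKAP12, with libraries that did not overlap those of the next condition. For GEM, TGF-β at 2 hours (4.92 ± 1.01 FPKM, SD, n = 4) and eATP at 2 hours (4.73 ± 0.329 FPKM, SD, n = 4) came first and overlapped. For SIK1 the order was TGF-β at 2 hours, TGF-β at 6 hours, controls, eATP at 6 hours and eATP at 2 hours, and only the step between TGF-β at 6 hours and the controls was free of overlap. PDE4D ran from TGF-β at 2 hours (15.9 ± 3.6 FPKM) through controls, eATP at 2 hours and TGF-β at 6 hours to eATP at 6 hours (11.6 ± 1.04 FPKM), and only the last step was free of overlap. Below the first condition, neighbours that overlapped included controls and eATP at 6 hours for CREM and PDE4B, and TGF-β at 6 hours and eATP at 6 hours for RGS2.

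The 6 genes that rose after 2 hours of eATP were each lower after 6 hours. At 6 hours of eATP 7 of the 8 genes were lower than at 2 hours and none was higher, where 12.6% of all genes tested passed (6.01% higher, 6.57% lower). Log2(FC) was -2.24 for RASD1 (SE 0.352 and adjusted p = 0.000247), -1.02 for RGS2 (SE 0.1 and adjusted p = 1.29e-06), -1.01 for GEM (SE 0.242 and adjusted p = 0.00877), -0.96 for CREM (SE 0.118 and adjusted p = 1.79e-05), -0.78 for AKAP12 (SE 0.159 and adjusted p = 0.0024) and -0.62 for PDE4B (SE 0.134 and adjusted p = 0.00399). In these 6 genes, and in PDE4D, the 4 libraries at 6 hours lay below the 4 at 2 hours, which held for 12% of all genes, and in none wholly above (11.1%). GEM did not pass in a fit of these groups alone (adjusted p = 0.0593). With 1 library left out its log2(FC) was -1.14 to -0.75, and it passed each time.

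PDE4D was lower as well, with a log2(FC) of -0.37 (SE 0.116 and adjusted p = 0.0415), but 13 of the 20 fits with 1 library left out did not keep the call (adjusted p 0.0502 to 0.129), among them those without any 1 of the 8 libraries compared. The others were those without control replicate 1 or 2, TGF-β 2 hours replicate 4, or TGF-β 6 hours replicate 1 or 2. With the replicate number as a block its adjusted p was 0.0537, which left 6 genes, and limma, library totals or no filter also ended the call (0.0643 to 0.0815). SIK1 had a log2(FC) of 0.18 (95% interval -0.022 to 0.38). Its copy SIK1B was higher at 6 hours of eATP than at 2 (log2(FC) 0.19, SE 0.0546 and adjusted p = 0.0253). The summed counts of both copies gave 0.19 (adjusted p = 0.0532). The comparisons with the controls at 2 and 6 hours and this one share libraries and are not independent of each other.

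Between 6 and 2 hours of TGF-β, 2 of the 8 genes differed, where 12.1% of all genes tested passed (5.49% higher, 6.59% lower). RGS2 was 1.66-fold higher at 6 hours (log2(FC) 0.73, SE 0.0998 and adjusted p = 6.27e-05), all 4 libraries at 6 hours lying above those at 2 hours. RASD1 was lower (log2(FC) -1.61, SE 0.358 and adjusted p = 0.00522, or 0.058 in a fit of these groups alone), and its libraries lay wholly below, as did those of 8.73% of all genes, while 5.6% lay wholly above. Without TGF-β 2 hours replicate 1 the count was 4. PDE4B (log2(FC) -0.43, adjusted p = 0.015) and PDE4D (log2(FC) -0.30, adjusted p = 0.0119) were then also lower. That fit had 1275 of all 20094 genes higher and 1799 lower, against 1103 and 1325 with all libraries. AKAP12 passed without TGF-β 2 hours replicate 3 (log2(FC) 0.57, adjusted p = 0.0319) and GEM without eATP 6 hours replicate 4 (log2(FC) -0.47, adjusted p = 0.03).

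The change between 2 and 6 hours was compared between the agents by the difference of the 2 changes, TGF-β minus eATP. It differed for 3 of the 8 genes, where 6.12% of all genes tested passed (3.1% above 0, 3.02% below). The difference in log2(FC) was 1.76 for RGS2 (SE 0.141 and adjusted p = 3.7e-07), 1.25 for AKAP12 (SE 0.224 and adjusted p = 0.00154) and 1.20 for CREM (SE 0.166 and adjusted p = 0.000125). For these 3 genes eATP gave a lower level at 6 hours than at 2, and the log2(FC) between 6 and 2 hours of TGF-β was above 0, though for CREM (0.24) and AKAP12 (0.46) it did not pass. For RASD1, lower at 6 hours of both agents, the difference was 0.63 (95% interval -0.42 to 1.68) and did not pass. Of the alternatives only limma on log2(FPKM + 1) called it (0.75, adjusted p = 0.00175). Outside 2 hours of eATP every library had less RASD1 than the 1 FPKM added there, which compresses changes at such levels. Without TGF-β 2 hours replicate 1 SIK1 also passed (a difference of -0.40, adjusted p = 0.0125).

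**Figure D4:**
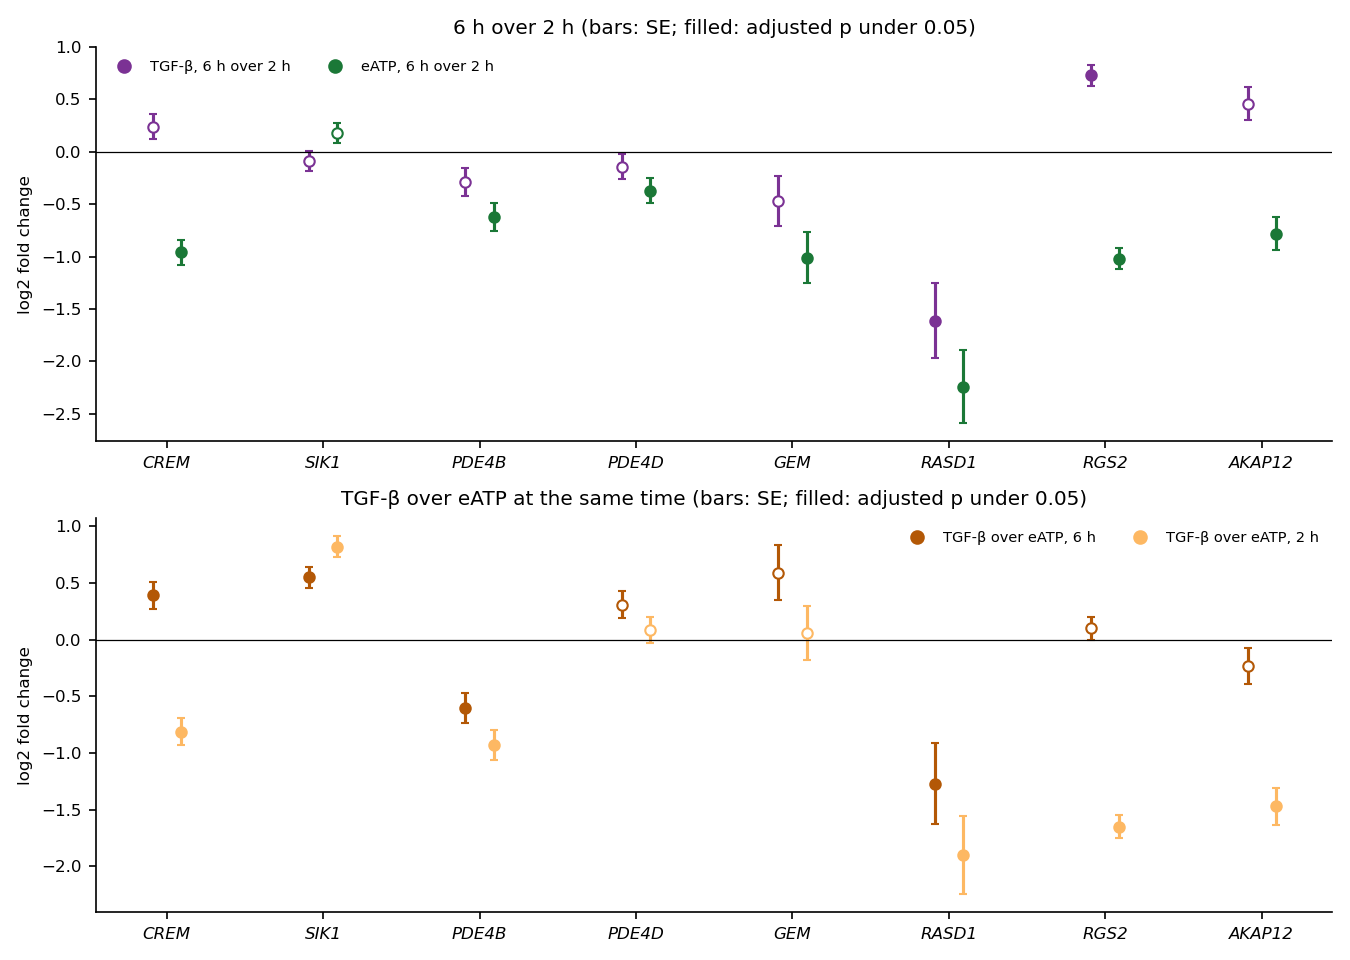
Top: log2(FC) between 6 and 2 hours of TGF-β and of eATP. Bottom: log2(FC) of TGF-β over eATP at 6 and at 2 hours, in both panels with SE as bars and filled points where edgeR's adjusted p was under 0.05. In the top panel 7 eATP points are filled below 0, and in the bottom panel SIK1 is above 0 at both times.

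At 2 hours TGF-β and eATP differed in 6 of the 8 genes, where 9.08% of all genes tested passed (4.93% higher, 4.16% lower under TGF-β). SIK1 was higher under TGF-β (log2(FC) 0.82, SE 0.095 and adjusted p = 6.29e-06). RASD1 (-1.90, SE 0.347 and adjusted p = 0.000998), RGS2 (-1.65, SE 0.102 and adjusted p = 1.51e-09), AKAP12 (-1.47, SE 0.161 and adjusted p = 3.12e-06), PDE4B (-0.93, SE 0.135 and adjusted p = 8.35e-05) and CREM (-0.81, SE 0.118 and adjusted p = 8.43e-05) were lower under TGF-β. In all 6 the libraries of the 2 agents did not overlap, those of TGF-β lying wholly above in 1 gene and wholly below in 5 (7.87% and 7.44% of all genes), and each passed in every fit that left out 1 library. For GEM log2(FC) was 0.057 with a 95% interval of -0.45 to 0.57, and for PDE4D it was 0.085 with an interval of -0.16 to 0.33.

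At 6 hours the agents differed in 4 of the 8, where 17.6% of all genes tested passed (8.97% higher, 8.66% lower under TGF-β). The TGF-β libraries lay wholly above in 4 genes and wholly below in 2 (10.1% and 13.5% of all genes). SIK1 was higher under TGF-β (log2(FC) 0.55, SE 0.0947 and adjusted p = 0.000307), and PDE4B was lower (log2(FC) -0.60, SE 0.134 and adjusted p = 0.00352). CREM was higher (log2(FC) 0.39, SE 0.117 and adjusted p = 0.0275), the opposite of its difference at 2 hours, but the call was not kept without eATP 6 hours replicate 1, 2 or 3 or TGF-β 6 hours replicate 1, 3 or 4 (adjusted p 0.0543 to 0.0962), nor with limma, unscaled library totals or no filter (0.0503 to 0.0676). RASD1 was lower (log2(FC) -1.27, SE 0.356 and adjusted p = 0.0177), and not past the threshold without eATP 6 hours replicate 4 (0.0559) or TGF-β 6 hours replicate 4 (0.0584). PDE4D, at 0.31 (95% interval 0.066 to 0.56), passed without TGF-β 2 hours replicate 1 (0.00541), with upper-quartile scaling (0.0296) or in a fit of these groups alone (0.0226). For RGS2 log2(FC) was 0.10 (95% interval -0.11 to 0.32) and for AKAP12 -0.23 (95% interval -0.56 to 0.11). GEM had a log2(FC) of 0.59 (95% interval 0.08 to 1.11, adjusted p = 0.107), and 0.34 to 0.71 with 1 library left out.

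Other genes of the pathway were followed in 9 lists written from general knowledge, from receptors to CREB targets. The lists were chosen with earlier results of these data known, so their counts are not independent of these data. Of all genes tested, 8.4% were higher and 7.76% lower for TGF-β at 6 hours, 7.25% and 5.67% for TGF-β at 2 hours, 1.71% and 1.28% for eATP at 6 hours, and 4.79% and 3.79% for eATP at 2 hours, and the counts of each list stand against these shares. The longest list, the other CREB target genes, held the most calls under each of the 4 treatments. Of 31 such genes 26 were tested, and 13 were higher and 6 lower after 2 hours of eATP (4.79% and 3.79% of all genes). Their median log2(FC) was 0.63 against -0.011 over all genes, and with 1 library left out the counts stayed at 12 to 13 higher and 6 lower. With 6 hours of eATP 4 rose and 2 fell. TGF-β for 6 hours raised 5 and lowered 7 (median -0.0095), and TGF-β for 2 hours raised 8 and lowered 8 (median 0.30). The targets thus did not move as one: after 2 hours of eATP the orphan receptor gene NR4A3 had 6.21 ± 0.198 FPKM, against 0.419 ± 0.0541 FPKM in controls (SD, n = 4 each), while the early response gene EGR1 had 0.893 ± 0.0833 FPKM, against 23.5 ± 3.96 FPKM in controls. FOS, an AP-1 subunit gene with well-known cAMP response elements, also fell there, to 1.15 ± 0.289 FPKM, against 21.2 ± 2.23 FPKM in controls. These changes were not confined to that treatment. FOS was also lower under TGF-β (log2(FC) -3.24 at 6 hours and -3.18 at 2 hours) and after 6 hours of eATP (-1.02). EGR1 was also lower after 2 hours of TGF-β (-2.41) and 6 hours of eATP (-1.09), and NR4A3 higher after 2 hours of TGF-β (2.21). All 4 comparisons share the same controls.

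**Figure D5:**
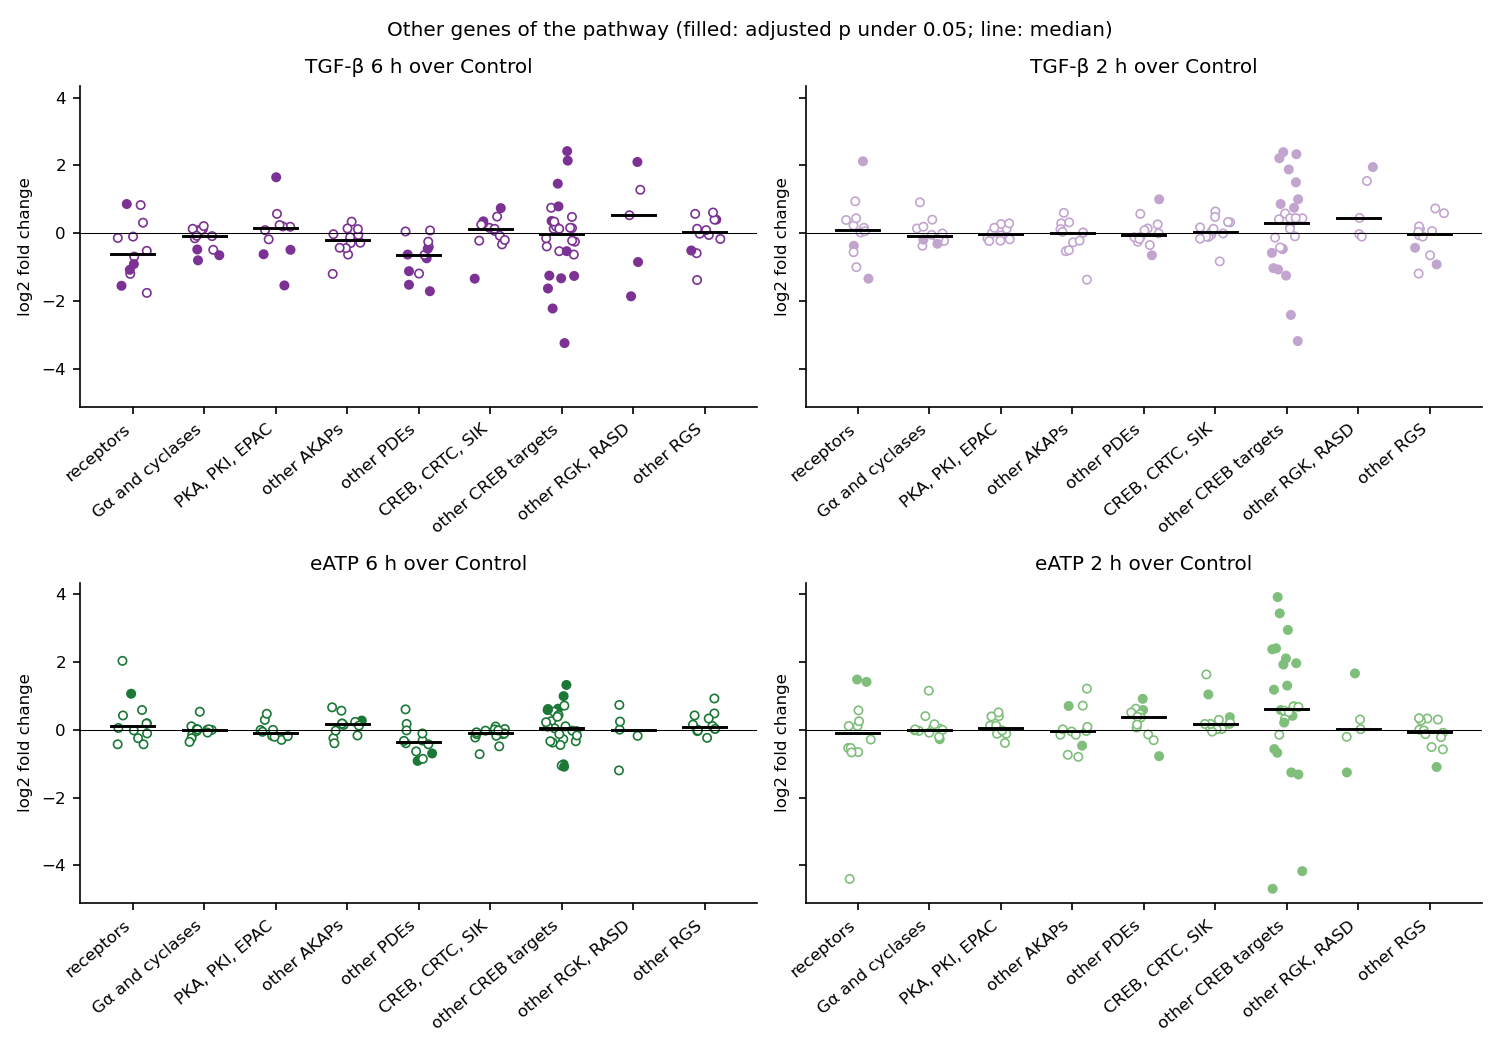
Log2(FC) over the controls of every tested gene of the 9 lists under each treatment, with filled points where edgeR's adjusted p was under 0.05 and a line at the median of the list. The other CREB targets have the widest spread after 2 hours of eATP, and after 6 hours of TGF-β the 6 filled points of the other phosphodiesterases lie below 0.

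Of the other phosphodiesterases 12 of 16 were tested, and after 6 hours of TGF-β 6 were lower and none higher, with a median log2(FC) of -0.64 against -0.012 over all genes. Of all genes tested 7.76% were lower there. PDE10A, which breaks down both cAMP and cGMP, had 0.833 ± 0.153 FPKM, against 2.88 ± 0.106 FPKM in controls (log2(FC) -1.71, SE 0.105 and adjusted p = 1.08e-09). PDE8B, which is specific for cAMP, had 0.748 ± 0.363 FPKM, against 2.25 ± 0.201 FPKM in controls (log2(FC) -1.52, SE 0.33 and adjusted p = 0.00289). PDE7B, also specific for cAMP, had 1.01 ± 0.0894 FPKM, against 2.33 ± 0.256 FPKM in controls (log2(FC) -1.12, SE 0.115 and adjusted p = 8.46e-07). The count was 6 to 8 lower and 0 higher in each of the 20 fits with 1 library left out. For TGF-β at 2 hours it was 1 higher and 1 lower, for eATP at 6 hours 0 and 2, PDE7B among them (log2(FC) -0.92, SE 0.115 and adjusted p = 9.37e-05), and for eATP at 2 hours 2 and 1.

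Among receptors that act through Gs or Gi, 12 of 20 were tested. PTGER2, the Gs-coupled EP2 receptor for prostaglandin E2, rose under all 4 treatments, to 0.876 ± 0.212 FPKM under TGF-β for 6 hours, 2.2 ± 0.179 FPKM under TGF-β for 2 hours, 1.06 ± 0.21 FPKM under eATP for 6 hours and 1.4 ± 0.275 FPKM under eATP for 2 hours, against 0.512 ± 0.125 FPKM in controls (SD, n = 4 each). Its log2(FC) was 0.86, 2.12, 1.06 and 1.48 in that order, with adjusted p of 0.00688, 1.21e-06, 0.00705 and 9.45e-05. ADORA2B, the Gs-coupled adenosine receptor of airway epithelium, had 1.89 ± 0.276 FPKM after 6 hours of TGF-β, against 5.88 ± 0.67 FPKM in controls (log2(FC) -1.55, SE 0.121 and adjusted p = 2.46e-08). Neither time of eATP passed for it (0.0687 at 6 hours and 0.736 at 2 hours). Over the list, 1 was higher and 3 lower for TGF-β at 6 hours (8.4% and 7.76% of all genes), 1 and 2 for TGF-β at 2 hours (7.25% and 5.67%), 1 and 0 for eATP at 6 hours, and 2 and 0 for eATP at 2 hours.

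Of the G protein alpha subunits and adenylyl cyclases 12 of 17 were tested, and 3 were lower after 6 hours of TGF-β and none higher. They were GNAI1, a Gi subunit (log2(FC) -0.80, SE 0.127 and adjusted p = 0.000147), ADCY6 (-0.48, SE 0.0922 and adjusted p = 0.000941) and ADCY9 (-0.65, SE 0.189 and adjusted p = 0.0224), the last not kept without control replicate 4 (0.0694) or TGF-β 6 hours replicate 3 (0.0655). TGF-β at 2 hours lowered 2, eATP at 2 hours 1 and eATP at 6 hours 0. Of the PKA subunits, PKA inhibitors and EPAC genes 10 of 12 were tested, and the calls all came at 6 hours of TGF-β, where 16.2% of all genes passed, with 1 higher and 3 lower. The inhibitor PKIA had 1.07 ± 0.096 FPKM, against 0.358 ± 0.0832 FPKM in controls (log2(FC) 1.65, SE 0.222 and adjusted p = 2.21e-05), and the regulatory subunit PRKAR2B was lower (log2(FC) -0.49, SE 0.116 and adjusted p = 0.00549). The inhibitor PKIB was lower too (log2(FC) -0.62, adjusted p = 0.0231), but not past the threshold without control replicate 2, 3 or 4 or TGF-β 6 hours replicate 2 or 4 (0.057 to 0.0806).

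All 13 genes of the CREB family, its coactivators and the other SIK kinases were tested. Of these 2 were higher and 1 lower after 6 hours of TGF-β (16.2% of all genes passed), 0 and 0 after 2 hours of TGF-β and after 6 hours of eATP, and 2 and 0 after 2 hours of eATP (8.58% of all genes passed). CRTC1 was higher after 6 hours of TGF-β (log2(FC) 0.74, SE 0.158 and adjusted p = 0.00252), as was CRTC2 (log2(FC) 0.35, SE 0.0936 and adjusted p = 0.0127, or 0.0756 without TGF-β 6 hours replicate 3). ATF1, a CREB relative, was higher after 2 hours of eATP (log2(FC) 0.37, SE 0.11 and adjusted p = 0.0429), and its call was kept in 4 of the 20 fits with 1 library left out, those without TGF-β 2 hours replicate 1 or 2, eATP 6 hours replicate 3 or TGF-β 6 hours replicate 3 (0.0508 to 0.126 in the other 16).

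Of the other A-kinase anchoring proteins 12 of 15 were tested, and none passed under TGF-β at either time. At 2 hours of eATP AKAP8L was lower (log2(FC) -0.47, SE 0.115 and adjusted p = 0.0126), and AKAP13 was higher (log2(FC) 0.70, SE 0.211 and adjusted p = 0.0465), a call kept in 7 of the 20 fits with 1 library left out, those without eATP 2 hours replicate 4, TGF-β 2 hours replicate 1, 2 or 3, eATP 6 hours replicate 3 or TGF-β 6 hours replicate 2 or 4. At 6 hours of eATP AKAP8 was higher (log2(FC) 0.27, SE 0.0686 and adjusted p = 0.0412), also kept in 7 of 20, those without control replicate 1, any 1 of the 4 TGF-β 2 hours libraries, or TGF-β 6 hours replicate 3 or 4. With the replicate number as a block neither AKAP13 (0.0759) nor AKAP8 (0.0847) passed.

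Of the other RGK and RASD GTPases 5 of 8 were tested. RRAD, an RGK relative of GEM, was higher under TGF-β at 6 hours (log2(FC) 2.10, SE 0.381 and adjusted p = 0.000574), TGF-β at 2 hours (1.95, SE 0.38 and adjusted p = 0.00155, or 0.0512 in a fit of these groups alone) and eATP at 2 hours (1.66, SE 0.377 and adjusted p = 0.00761), with 15 to 68 reads in the controls. The list had 1 higher and 2 lower for TGF-β at 6 hours, 1 and 0 for TGF-β at 2 hours, 0 and 0 for eATP at 6 hours and 1 and 1 for eATP at 2 hours. Of the other RGS genes 12 of 20 were tested. RGS3 was lower after 2 hours of eATP (log2(FC) -1.10, SE 0.11 and adjusted p = 1.56e-06), with 0.71 ± 0.078 FPKM, against 1.55 ± 0.164 FPKM in controls, while RGS2 was higher. RGS17 was lower after 2 hours of TGF-β (log2(FC) -0.92, SE 0.147 and adjusted p = 0.000234). The list had 1 and 1, 0 and 2, 0 and 0, and 0 and 1 higher and lower under TGF-β at 6 hours, TGF-β at 2 hours, eATP at 6 hours and eATP at 2 hours.

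The genes most like each of the 8 in pattern were sought among 11556 other genes by Pearson's r of log2(FPKM + 0.1) over the 20 libraries, which share their conditions, so r describes the pattern and carries no test. For CREM they were ITPKC (r 0.921) and NAB2 (0.893), and for RASD1 MAP2K3 (0.927) and DUSP14 (0.924). For RGS2 they were BCL2A1 (0.954) and DDX10 (0.924), and for AKAP12 FNDC3A (0.960) and FEM1C (0.939). For PDE4B they were TGFBR2 (0.972), the type II TGF-β receptor gene, and ATP2B1 (0.964), and for PDE4D ATXN7L3B (0.946) and MIA2 (0.942). For SIK1 they were FZD5 (0.959) and its copy SIK1B (0.949). For GEM r was the lowest of the 8, with ZNF350 (0.878) and AGMO (0.859).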

How the data were processed

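RNA of A549 cells was sequenced in 20 libraries, with groups and replicate numbers taken from the labels. The authors deposited read counts per gene, whole numbers that are not normalized, and FPKM values per gene, scaled by the authors for transcript length and reads of the library. Per the labels, HISAT2, StringTie and edgeR were used, with no versions or roles. The sources used here name no genome build or annotation. Genes without reads are listed at 0.0001 FPKM. The 8 genes and the lists were chosen with earlier results of these data known.

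The 20094 genes that reached 0.1 FPKM in 4 or more libraries were tested with edgeR's quasi-likelihood test on the counts (edgeR 4.0.16, R 4.3.3, TMM scaling), in 1 model of the 5 conditions (15 residual degrees of freedom). Calls were two-sided at a Benjamini-Hochberg adjusted p under 0.05 over all genes. SE is the log2(FC) divided by the square root of F, and 95% intervals, not adjusted for multiple tests, use the t distribution with 15 degrees of freedom. Beside the 8 genes, the text names from each list up to 3 called genes of at least 1 FPKM with the largest change, or up to 2 by level where none was called, and the 2 genes most like each of the 8. A gene that this rule picks is not reported here.

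Alternatives were other scalings, filters, pseudocounts and thresholds, limma 3.58.1, DESeq2 1.42.0, robust estimation, fits of only the 2 groups compared, a block for the replicate number, leaving out each library and, chosen after seeing the data, the summed counts of SIK1 and SIK1B. Same-numbered libraries of 2 groups did not deviate together (correlations of -0.151 to 0.134 over 14700 genes, 4 of 40 over 0.1), and no source pairs them. Positions are from GENCODE release 29 on GRCh38, and promoters from RefSeq on GRCh38.p14. The depth, 56187614 to 75050437 counts per library, leaves RASD1 in controls at 15 to 64 reads.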

Additional observations from a re-analysis of the deposited data

Results flagged for a closer look

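In 5 of the 40 groups of 4 values (8 genes in 5 conditions) the lowest library lay far below the other 3 by Dixon's test, which flags about 1 in 20 groups by chance. CREM had 5.08 FPKM in replicate 3 of eATP at 2 hours, against 6.96 to 7.08 FPKM in the others. PDE4B had 3.48 FPKM in replicate 1 of TGF-β at 2 hours, against 5.38 to 5.69 FPKM. PDE4D had 10 FPKM in replicate 3 of eATP at 6 hours, against 11.9 to 12.2 FPKM, and 13.1 FPKM in control replicate 3, against 15.7 to 16.2 FPKM. GEM had 0.965 FPKM in replicate 4 of eATP at 6 hours, against 2.7 to 2.95 FPKM. What sets these libraries apart was not tested.

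The agents differed by a test of the difference itself (edgeR's adjusted p under 0.05). In the change between 2 and 6 hours, TGF-β minus eATP, the difference in log2(FC) was 1.20 for CREM, 1.76 for RGS2 and 1.25 for AKAP12. At 2 hours TGF-β over eATP was 0.82 for SIK1, and -0.81 for CREM, -0.93 for PDE4B, -1.90 for RASD1, -1.65 for RGS2 and -1.47 for AKAP12. At 6 hours it was 0.39 for CREM, 0.55 for SIK1, -0.60 for PDE4B and -1.27 for RASD1.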

How the results depend on the processing

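After 2 hours of eATP the calls of CREM, SIK1, RASD1, RGS2 and AKAP12, and at 2 hours the 6 calls of TGF-β against eATP, kept their direction and passed under every alternative at the threshold of 0.05, each left-out library included. The number of the 8 genes that passed had its widest range for TGF-β at 6 hours against the controls, where 3 were reported. It was 1 with library totals only, no filter, limma on log2(FPKM + 0.1) or log2(FPKM + 1), or a threshold of 0.01. It was 5 with DESeq2, 6 in a fit of the compared groups alone, and 1 to 5 with 1 library left out. Of all 20094 genes, 1688 were higher and 1559 lower for TGF-β at 6 hours as reported, and 1169 and 968 at 0.01. They were 1370 and 2098 with library totals, 1970 and 1901 with DESeq2 and 1745 and 1522 in the groups alone. Limma gave 1445 and 2097 or 1462 and 2081, and no filter 1416 and 1388 of 33438 genes. For TGF-β at 2 hours the number of the 8 genes was 1 in the groups alone and 2 at a threshold of 0.01, against 5. All genes gave 870 and 390 in the groups alone and 966 and 561 at 0.01, against 1456 and 1139. For eATP at 6 hours the number of the 8 genes was 1, and 2 with upper-quartile scaling or DESeq2. It was 0 at a threshold of 0.01, and 0 to 2 with 1 library left out. All genes gave 343 higher and 257 lower, against 340 and 310 with upper-quartile scaling, 639 and 467 with DESeq2 and 168 and 95 at 0.01. Between 6 and 2 hours of TGF-β 2 of the 8 genes passed, and 1 in the groups alone. With 1 library left out 2 to 4 passed. All genes gave 1103 higher and 1325 lower, and 343 and 516 in the groups alone. For TGF-β against eATP at 6 hours 4 of the 8 genes passed, and 2 at a threshold of 0.01. With 1 library left out 2 to 5 passed. All genes gave 1802 higher and 1741 lower, and 1215 and 1088 at 0.01. The genes of the lists called for eATP at 6 hours numbered 16 with DESeq2 and 7 to 17 with 1 library left out, against 10. Without TGF-β 2 hours replicate 1, which gave the 5, the 4 and the 17, all genes are tested with 1 library fewer. More of all genes passed in those comparisons too. For eATP at 6 hours, a comparison without this library, 591 were then higher and 431 lower, against 343 and 257. Why more pass was not tested.

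Values that changed sign did so for genes that had not passed. For PDE4D after 2 hours of eATP log2(FC) was -0.0074 and became 0.0044 with DESeq2 size factors or the DESeq2 test and 0.0015 with a filter of 1 FPKM (-0.066 to 0.018 with 1 library left out). For AKAP12 after 2 hours of TGF-β it was 0.0097 and became -0.0079 with library totals, -0.061 and -0.056 with limma at pseudocounts of 0.1 and 1 (-0.10 to 0.19 with 1 library left out). With 1 library left out it ranged over -0.0065 to 0.19 for CREM after 2 hours of TGF-β, -0.07 to 0.007 for CREM after 6 hours of eATP, -0.16 to 0.23 for GEM after 6 hours of eATP, -0.042 to 0.17 for GEM under TGF-β against eATP at 2 hours, and -0.52 to 0.054 for RASD1 after 6 hours of TGF-β. With the replicate number as a block 6 genes differed between 6 and 2 hours of eATP, against 7, and of the calls printed it ended those of PDE4D (0.0537), AKAP13 and AKAP8.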
